A study of Mus musculus with 8 samples.

Results

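Cortical thymic epithelial cells (cTEC) of 16-week-old mice were defined here by 2 cortical transcripts and followed across RNA and surface tags. A cell counted as epithelial when it held at least 3 UMIs (unique molecular identifiers, each standing for 1 counted molecule) of Epcam, Krt8, Krt18 and Krt5 together and more of these than of the fibroblast genes Col1a1, Col1a2, Col3a1 and Dcn. An epithelial cell counted as cTEC when Psmb11 and Prss16 together reached at least 3 UMIs and at least 0.1% of all its UMIs. The rule chose 254 of the 6677 cells of the 16-week libraries, and the whole data set held 9953 cells. These were 69 of 1217 epithelial cells in well 1 and 185 of 2991 in well 2. The other 3954 epithelial cells of that age are called other TEC below. Since the rule used these 10 genes, their values only describe the choice.

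Thymic stroma of wild-type C57BL/6 mice was profiled by CITE-seq, in which RNA and antibody-derived tags (ADT) are counted in the same droplet. Cells of several thymi of 1-week-old mice, and separately of 16-week-old mice, were depleted of CD45+ cells, stained with 27 tagged reagents, and sorted. Cells negative for CD45 and Ter119, both with and without EpCAM1, went into 1 tube per age, which was loaded on 2 wells. No treatment is named, and the wells of an age were technical replicates of 1 pool of animals. No test between ages was possible, every value is given per well, and differences between the pools cannot be told apart from differences between ages. The 1-week libraries held transcripts of the Y-linked gene Ddx3y (858 and 698 UMIs) while the 16-week libraries held 1 and 0, so the sex of the pooled animals and their age cannot be told apart either.

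Cortical epithelium supplies the ligands that hold T cell precursors in the cortex and commit them to the T lineage, and it displays the self-peptides on which immature thymocytes are positively selected. Psmb11 encodes the thymoproteasome subunit β5t and Prss16 a thymus-specific serine protease, both parts of the peptide processing particular to cortical cells. Medullary TEC (mTEC) display tissue-restricted antigens and attract selected thymocytes. TEC with features of both compartments carry Sca1 on the surface and Ccl21a and Krt5 transcripts.

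Promoters of the genes by which the cells were chosen or checked are shown first, with the letters that the transcription factor FOXN1, the master regulator of thymic epithelium, is known to bind. Of the 4 markers Psmb11, Prss16, Ly75 and Cxcl12, the RefSeq promoter table of GRCm38.p6 held 3. Each sequence runs from 250 bases before to 50 bases after the annotated start, 5′ to 3′ on the strand of the gene, and capitals mark GACGC or its reverse complement GCGTC, the core letters of the FOXN1 motif. Psmb11 lies on the plus strand (chr14:54625060-54625359), Cxcl12 on the plus strand (chr6:117168285-117168584) and Ly75 on the minus strand (chr2:60383224-60383523).
Psmb11: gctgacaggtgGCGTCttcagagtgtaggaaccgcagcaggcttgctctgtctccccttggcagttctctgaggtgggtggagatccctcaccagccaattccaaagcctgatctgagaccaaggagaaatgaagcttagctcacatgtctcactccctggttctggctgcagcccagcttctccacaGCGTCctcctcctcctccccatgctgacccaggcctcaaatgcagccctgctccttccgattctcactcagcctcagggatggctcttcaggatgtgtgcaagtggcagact
Cxcl12: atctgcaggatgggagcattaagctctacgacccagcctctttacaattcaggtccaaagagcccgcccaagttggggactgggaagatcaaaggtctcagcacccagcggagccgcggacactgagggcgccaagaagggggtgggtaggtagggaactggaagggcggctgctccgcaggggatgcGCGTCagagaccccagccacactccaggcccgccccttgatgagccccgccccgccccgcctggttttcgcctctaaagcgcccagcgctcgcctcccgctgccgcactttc
Ly75: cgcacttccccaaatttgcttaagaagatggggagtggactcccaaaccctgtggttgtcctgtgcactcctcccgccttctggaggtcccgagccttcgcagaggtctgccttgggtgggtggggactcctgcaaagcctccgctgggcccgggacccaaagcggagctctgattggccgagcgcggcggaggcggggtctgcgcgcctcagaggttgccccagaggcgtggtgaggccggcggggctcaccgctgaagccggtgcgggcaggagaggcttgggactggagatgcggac
The 5 letters occurred 2 times in the window of Psmb11, 1 time in that of Cxcl12 and in none of Ly75. Of all 32851 promoters of this length in the table, 27.2% held them at least 1 time and 8.15% at least 2 times. A match describes letters only and is no evidence of binding.

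The share of cTEC among epithelial cells was 5.67% in well 1 of the 16-week pool (95% Clopper-Pearson interval 4.44 to 7.12) and 6.19% in well 2 (5.35 to 7.11), a mean of 5.93% ± 0.365 (SD, n = 2 wells). At 1 week the same rule chose 1191 of 1543 and 818 of 1131 epithelial cells, 77.2% (75.01 to 79.3) and 72.3% (69.6 to 74.9), with a mean of 74.8% ± 3.44 (SD, n = 2 wells). The wells of the ages did not overlap. These intervals, and all others given here, cover counting error only, and a share in a sorted tube is not a share of the thymus.

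The background of the rule differed between the ages. Fibroblast-rich cells (at least 3 UMIs of the fibroblast genes and more of these than of the epithelial genes) are not known to make either transcript and served as the background. Psmb11 and Prss16 made up 0.0442% and 0.0498% of their UMIs in the 1-week wells but 0.00416% and 0.00501% in the 16-week wells. The rule's limit on Psmb11 and Prss16 was passed by 43 of 298 and 42 of 292 fibroblast-rich cells at 1 week, by 0 of 660 at 16 weeks in well 1, which allows a share of up to 0.455%, and by 5 of 1604 in well 2. The 1-week set therefore had the higher background, and its part in the 1-week share was not tested. In the 16-week epithelial cells 2070 of 4208 held no UMI of either gene, against 14 of 2674 at 1 week.

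**Figure D1:**
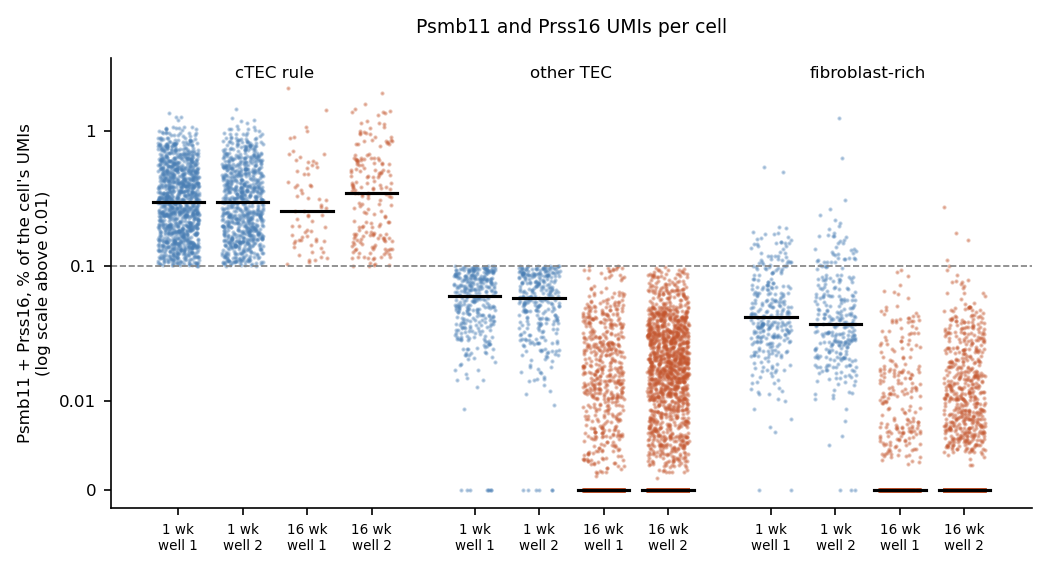
Share of each cell's UMIs that came from Psmb11 and Prss16 (percent, log scale above 0.01), by cell class, age and well, with a black bar at the median. The dashed line is the 0.1% limit of the rule. The medians of fibroblast-rich cells lie near 0.04% at 1 week and at 0 at 16 weeks.

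The lowest member held 0.101% and the highest epithelial cell left out, of those with at least 3 UMIs of the pair, 0.0996%. Of the 254 members, 46 lay under 0.15% and 14 rested on exactly 3 UMIs, while the median member held 34 UMIs of the pair, or 0.329% of its UMIs, and 19 members held at least 1%. A stricter rule (at least 6 UMIs and 0.2%) kept 161 of the 254.

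The 16-week cTEC were deeply sequenced cells. Their median depth was 13436 and 10694 UMIs in the 2 wells, against 6352 and 5698 in other TEC of the same wells and 6758 and 6323 in 1-week cTEC. Summed, they held 1234349 and 3021587 RNA UMIs and 287099 and 704069 ADT counts. The mitochondrial share had a median of 2.51% and 3.01%, against 6.88% and 8.32% in other TEC. Over 30000 UMIs were held by 13 and 34 members, and at least 3 UMIs of 14 thymocyte genes by 19 and 42. Across the 4 libraries 15 cell barcodes were shared by 35 cells, of which 6 were members, and leaving these cells out gave a share of 5.75%.

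Markers that the rule did not use went with the label. Expression is given as CPM (UMIs of the summed cells of a class, scaled to a total of 1000000), differences are log2 of the ratio of CPM + 10, and a gene was called when the mean difference reached 1 in size (2-fold), with the same sign in both wells within an age, or without overlap of the wells between ages. All genes with a mean of at least 10 CPM were compared. Ly75, the endocytic receptor DEC-205 of cortical epithelium, stood at 472 and 617 CPM in the 16-week cTEC wells and at 58.4 and 53.1 in other TEC. Cxcl12, the chemokine that retains precursors in the cortex, stood at 1477 and 1498 against 216 and 218. Both were higher in both wells, with log2 differences of 3.07 ± 0.35 and 2.72 ± 0.00 (SD, n = 2 wells). In shares of cells thinned to 2000 UMIs each, Ly75 was seen in 58.0% and 54.6% of cTEC, 9.93% and 8.55% of other TEC and 2.42% and 2.68% of fibroblast-rich cells (unthinned 89.9% and 84.3%, 30.9% and 28.2% and 7.88% and 10.7%).

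Every gene of the 9-gene cTEC list, the rule's 2 included, was called higher in 16-week cTEC than in other TEC. The list's median log2 difference was 3.06 beside 0.04 over all 9868 genes compared, and 3.43% of all genes were called higher and 7.45% lower, 10.9% in all. The balance depended on the filter: 31.5% of the calls were higher here and 58.2% with a filter at 50 CPM. These shares stand beside every count of list genes against other TEC below. The rule made this contrast, so such counts describe the cells and nothing is read from them. Ccl25, which draws precursors through CCR9, stood at 3504 and 4850.1 CPM against 263 and 247. Ctsl, the protease that trims class II ligands in the cortex, stood at 10504 and 12355 against 1139 and 1237. Foxn1 stood at 137 and 179.7 against 64.9 and 62.8, and the Notch ligand Dll4 at 47.8 and 62.5 against 9.41 and 14.7. Of these, the wells of cTEC and of other TEC did not overlap for any gene, and the call of Foxn1 was lost without well 2.

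Among 13 thymopoietic factors, 12 could be compared at 16 weeks. Dll4, Kitl, Ccl25, Cxcl12 and Wnt4 were called higher in cTEC, Ccl19 and Igf1 lower. Kitl, the stem cell factor, stood at 111 and 129.7 CPM against 44.7 and 44.4 in other TEC (log2 difference 1.25), while at 1 week it stood at 114 and 114 against 130.0 and 143 and was not called. Il7, the cytokine of early thymocyte survival, stood at 222 and 184 against 108 and 108, a log2 difference of 0.84 below the limit. Ccl21a, the medullary ligand of CCR7, was high in both classes, at 4051 and 3049 in cTEC and 5448 and 5318 in other TEC.

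Of the 17 protease and proteasome genes, Psmb9, Psmb10 and Ctsl joined the rule's Psmb11 and Prss16 as called higher, and Psme1, Ctss, Ctsh and Ctsz were called lower. Psmb9 and Psmb10 encode immunoproteasome subunits, whose CPM were 737 and 808 and, for Psmb10, 846 and 1098. Ctss, the class II trimming protease of medullary and haematopoietic cells, stood at 11.3 and 10.9 against 86.5 and 74.6 in other TEC, the reverse of Ctsl. Psmb5, the standard subunit that Psmb11 replaces, stood at 248 and 291 against 154 and 153 (log2 difference 0.77, not called).

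Of 8 genes chosen as features of neonatal cTEC, 6 were called higher in 16-week cTEC than in other TEC (Tbata, Syngr1, Slc46a2, Cd83, Enpep and Fam213b) and 2 lower (Cd40 and Fcgbp). Fcgbp was lower in cTEC at 1 week as well, at 37.9 and 48.5 CPM against 364 and 175, so the name of the list did not hold for it in these data. The Cd40 call was lost without well 1, under the stricter rule and with cells weighted equally. Cd83, which encodes a membrane protein that stabilises MHC class II, stood at 186 and 323 CPM against 12.4 and 11.9. The 10 genes with the largest difference outside the rule were Ccl25, Tbata, Isg20, Cd83, Pithd1, Ctsl, Fxyd2, Cstb, Ly75 and Syngr1. Tbata, a thymus-enriched gene, stood at 5255 and 7019 against 495 and 423. Isg20, an interferon-inducible exonuclease, stood at 389.7 and 679 against 33.2 and 29.3. Fxyd2, a regulator of the sodium pump, stood at 1126 and 1034 against 92.2 and 121, and Cstb, a cathepsin inhibitor, at 4255 and 5783 against 575 and 556. All 10 were also called higher in cTEC at 1 week, where 2.53% of all genes were called higher and 10.1% called in either direction.

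**Figure D2:**
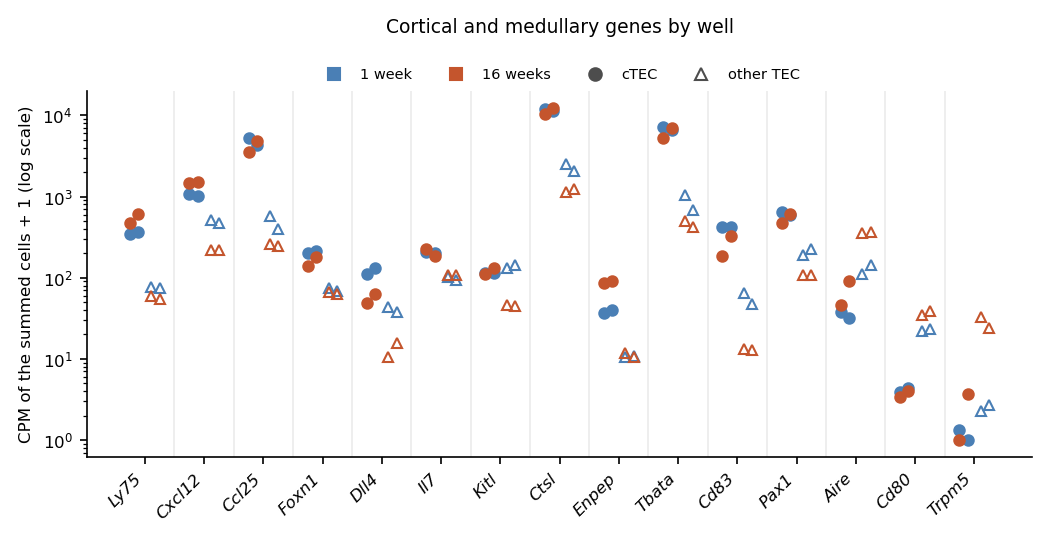
CPM + 1 of summed cells (log scale) for cortical and medullary genes, 1 point per well, filled circles for cTEC and open triangles for other TEC, blue at 1 week and orange-red at 16 weeks. Ly75, Cxcl12, Ccl25, Ctsl and Tbata separate the classes at both ages, while Kitl is higher in cTEC at 16 weeks and slightly lower at 1 week.

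The 10 genes outside the rule that were lowest in cTEC against other TEC were Pth and Chga of endocrine cells, Cdkn1c, Hdc, Ccl11, Rgs5, Bpifa1, Syt1, Fabp4 and Csn2. Pth, the parathyroid hormone gene, stood at 65.6 and 26.1 CPM in cTEC and 965 and 367 in other TEC. Csn2, a casein gene of mature mTEC, stood at 36.5 and 46.3 against 353 and 315. The medullary regulator Aire stood at 45.4 and 91.0 against 354 and 369 and in fibroblast-rich cells at 80.2 and 99.9, so its level in the 16-week cTEC was no higher than this background. The co-stimulatory gene Cd80 stood at 2.43 and 2.98 against 33.7 and 38.0, and Trpm5 of tuft cells at 0 and 2.65 against 31.7 and 23.2. In all, 8 of the 9 mTEC genes were called lower, beside 7.45% of all genes, and Ccl21a alone was not. The calls of Cd80, Cldn3, Cldn4 and Spib were lost with a filter at 50 CPM.

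Markers of other cell types were summed as well. Of the 6 fibroblast marker genes outside the rule none was at 0 in cTEC, and their summed level was 179 and 214 CPM, against 499 and 567 in other TEC and 4968 and 4763 in fibroblast-rich cells. The 4 endothelial markers summed to 14.6 and 13.2 CPM, against 137 and 145 in other TEC. The 3 mural markers summed to 224 and 251 CPM, against 842 and 880 in other TEC and 560 and 504 in fibroblast-rich cells. The 14 thymocyte markers, none at 0, summed to 403 and 451 CPM in 16-week cTEC and 115 and 114 in other TEC, and 7 of the 10 that could be compared were called higher in cTEC. Without cells over 30000 UMIs and cells with at least 3 thymocyte UMIs, the differences of Cd3d, Cd3e, Cd3g, Dntt and Trbc1 turned to the other sign. These genes are among the 14 by which those cells were left out, so a fall was fixed in advance and nothing is read from it. The 6 macrophage and dendritic genes summed to 26.7 and 30.4 CPM, with Itgax at 0 in both wells, C1qc at 0 in well 1 and C1qa at 0 in well 2.

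The comparison with 1-week cTEC asked which transcripts of the cortical epithelium differed between neonatal and adult thymus. Of 9179 genes compared, 239 were called higher (2.60%) and 125 lower (1.36%) in 16-week cTEC, 3.97% in all, with a median difference of 0.04 over all genes. Scaling by TMM gave 189 higher and 161 lower, and leaving out cells over 30000 UMIs gave 221 and 218. Foxn1, Dll4, Ccl25, Ly75 and Cxcl12 were not called, 7 of 19 cell cycle genes were lower, and 3 of 6 intertypical genes, 3 of 9 class I genes and 4 of 18 growth factor pathway genes were higher. Many of these differences were also seen in other cells. Of the 239 genes, 100 (41.8%) were also called higher with age in other TEC, where 2.75% of all genes were higher and 6.45% called in all, and 63 (26.4%) in fibroblast-rich cells, where 2.82% were higher and 5.90% called in all. Of the 125 lower genes, 71 (56.8%) were also called in other TEC and 54 (43.2%) in fibroblast-rich cells, where 3.70% and 3.07% of all genes were called lower. For 118 of the higher and 48 of the lower genes neither class had the call.

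In the 9-gene cTEC list only Enpep was called, and the list's median was -0.01. Ly75 stood at 345 and 364 CPM at 1 week beside the 472 and 617 at 16 weeks (log2 difference 0.61 ± 0.27), and Cxcl12 at 1079 and 1019 beside 1477 and 1498 (0.50 ± 0.06). Foxn1 stood at 203 and 215 and then 137 and 179.7 (-0.38), and Ccl25 at 5221 and 4369.6 and then 3504 and 4850.1, with wells that overlapped. Dll4 lay just inside the limit, at 109 and 131 and then 47.8 and 62.5 (log2 difference -0.997), and its wells did not overlap. Enpep, which encodes the aminopeptidase Ly51 used to sort cTEC, stood at 36.0 and 39.6 and then 85.1 and 90.7 (1.03 ± 0.10). Its call was kept in 9 of 16 alternative settings and lost under both other scalings, and it rested on 105 and 274 UMIs in the 16-week wells. None of the 10 organ transcription factors that could be compared was called, among them Pax1, Pax9, Eya1, Hoxa3 and Trp63.

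Of the 10 intertypical and progenitor genes, 6 could be compared and 3 were called higher (Ly6a, Ccl21a and Krt14), with a list median of 1.57. Ccl21a stood at 275 and 358 CPM at 1 week and 4051 and 3049 at 16 weeks, a log2 difference of 3.45 ± 0.39. In fibroblast-rich cells it stood at 119 and 307 and then 743 and 634, so the background was also higher at 16 weeks. The level in cTEC was uneven between cells. The median member held 9.15 and 7.70 counts per 10000 UMIs and the 90th percentile 79.2 and 71.9, against medians of 4.66 and 5.35 in fibroblast-rich cells, and with cells weighted equally the age difference was 2.57. Ly6a, which encodes Sca1, stood at 36.1 and 39.6 and then 592 and 335 (3.31 ± 0.57), and fibroblast-rich cells held 1258 and 1255 at 16 weeks. Krt14, a basal keratin, stood at 48.8 and 40.2 and then 283 and 218 (2.25), against 104 and 137 in fibroblast-rich cells. The rule's own Krt5 moved from 101 and 102 to 1013 and 976, which is given as a description. The 9 mTEC genes summed to 402 and 471 CPM in 1-week cTEC and 4491 and 3449 in 16-week cTEC, and to 231 and 437 and 1021 and 969 in fibroblast-rich cells. The part of mTEC RNA or of cells with both programmes in these calls was not tested.

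Fcgbp and Igfbp5 led the genes that were higher at 16 weeks. Fcgbp, which encodes an IgG Fc-binding protein of mucosal epithelia, stood at 37.9 and 48.5 CPM at 1 week and 1275 and 905 at 16 weeks (4.37 ± 0.40, with Poisson intervals at 16 weeks of 1213 to 1339.8 and 872 to 939.7). Other TEC held more of it at both ages, 364 and 175 and then 2908 and 2970.2, and fibroblast-rich cells held 375 and 401 at 16 weeks. Its level was uneven between members, with a median of 4.28 and 4.48 and a 90th percentile of 58.3 and 26.0 counts per 10000 UMIs in cTEC against medians of 2.35 and 2.73 in fibroblast-rich cells, and with cells weighted equally the age difference was 3.54. Igfbp5, an IGF-binding protein, stood at 31.3 and 36.6 and then 890.3 and 640.4 (4.14 ± 0.35). At 16 weeks both cTEC wells were above other TEC (600.0 and 455) and fibroblast-rich cells (416 and 436), and the latter had been higher at 1 week (834 and 1463). Scn1a, a sodium channel gene, likewise stood highest in 16-week cTEC, at 9.40 and 9.65 and then 155 and 133 in cTEC, 50.7 and 50.6 in other TEC and 13.8 and 15.8 in fibroblast-rich cells at 16 weeks (2.98 ± 0.14). Scn1a was also called higher in 16-week cTEC than in other TEC (1.34), and at 1 week that difference was -0.04.

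Several large increases were also called in other TEC and in fibroblast-rich cells. C3, the complement component, stood at 19.9 and 23.7 and then 399 and 430.2 CPM (3.74), with 4557 and 4308 in fibroblast-rich cells at 16 weeks. Apoe, a lipid carrier, stood at 128 and 128 and then 1465 and 1068 (3.21), with 3951 and 3573 in fibroblast-rich cells. Gsn, an actin-severing protein, stood at 56.8 and 56.0 and then 329 and 437 (2.57), with 11098 and 10993 in fibroblast-rich cells. All 3 were higher in fibroblast-rich cells than in cTEC at 16 weeks in every well, and the part of free fibroblast RNA was not tested. Igfbp7 differed in direction between classes. It stood at 142 and 148 and then 430.2 and 406 in cTEC (1.47), but at 915 and 869 and then 328 and 368 in other TEC.

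Of 22 growth factor pathway genes, 18 could be compared and 4 were called, all higher and all IGF-binding proteins (Igfbp2, Igfbp4, Igfbp5 and Igfbp7). The receptors Fgfr2, Bmpr1a, Tgfbr2 and Igf1r were not called, with log2 differences of 0.25, 0.69, 0.61 and -0.23. Without cells over 30000 UMIs, or with each cell weighted equally, Igfbp4 and Igfbp7 lost the call, and Igfbp2 lost it without well 1 of the 16-week pool.

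Of 9 class I genes compared, H2-K1, H2-D1 and B2m were called higher and the list's median was 0.36. H2-K1 stood at 1186 and 1177 and then 2609 and 2842 CPM (1.20), and B2m, the shared light chain, at 859.9 and 889 and then 2131 and 1966 (1.22). Fibroblast-rich cells also had the 3 calls, with H2-K1 at 646 and 638 and then 2464 and 2706. The calls of H2-K1 and H2-D1 were lost without the cells over 30000 UMIs and with cells weighted equally, and that of H2-D1 also under the stricter rule and under both other scalings. The immunoproteasome subunit Psmb8, encoded in the MHC, stood at 73.8 and 68.2 and then 255 and 301 (1.83 ± 0.18), the one call among 15 protease and proteasome genes, and Psmb9 at 579 and 559.5 and then 737 and 808 (0.43, not called). Of 10 class II genes none was called higher. H2-Ab1 stood at 2678 and 2612 and then 3633 and 3743 (0.48), and Cd74, the invariant chain, at 8727 and 8233 and then 10581 and 10161 (0.29). Ifi30, the lysosomal thiol reductase, was called lower, at 321 and 300.3 and then 129 and 127 (-1.22).

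Cxcl10, an interferon-inducible chemokine, stood at 2111 and 2254 CPM at 1 week and 611 and 603 at 16 weeks (-1.83 ± 0.07), and Irf1, a transcription factor of the interferon response, at 646 and 654 and then 226 and 251 (-1.41). Both were also lower in other TEC and in fibroblast-rich cells. Of 18 interferon response genes, 1 was called higher (Ly6a) and 2 lower (Irf1 and Iigp1), and the list's median was -0.02. Isg15, Ifit1, Ifit3, Oasl2 and Bst2 were not called, with differences between -0.46 (Isg15) and 0.21 (Ifit1). Cd274, which encodes PD-L1, stood at 424 and 472 and then 165 and 239 (-1.11), a call lost without well 1 of the 16-week pool and with cells weighted equally.

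Of 19 cell cycle genes compared, 7 were called lower (Mki67, Top2a, Cdk1, Birc5, Ube2c, Cenpf and Stmn1), none was higher, and the list's median was -0.83. Top2a stood at 102 and 78.5 and then 9.72 and 32.1 CPM (-1.70 ± 0.81). All 7 calls were lost under the stricter rule. In cells thinned to 2000 UMIs, Mki67 was seen in 13.4% and 12.8% of 1-week and 2.90% and 2.703% of 16-week cTEC, beside 15.1% and 13.0% and 3.64% and 1.75% of fibroblast-rich cells (unthinned 33.8% and 32.5% and 13.0% and 13.5% of cTEC).

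The genes with the largest decrease included the imprinted transcripts Meg3 and H19. Meg3 stood at 63.4 and 69.2 and then 2.43 and 7.94 CPM (-2.33), and H19 at 35.2 and 41.7 and then 1.62 and 1.99 (-2.04). The 16-week values rested on 3 and 24 UMIs of Meg3 and 2 and 6 of H19, so these differences depend on the 10 CPM added. Fibroblast-rich cells held far more of both at 1 week, 2363 and 2303 of Meg3 and 985 and 1101 of H19, and the part of free RNA was not tested. Bex2, a small adaptor protein, had the reverse order, at 60.7 and 68.8 and then 7.29 and 5.63 in cTEC (-2.18) and 12.6 and 12.5 in fibroblast-rich cells at 1 week. Ramp3, a receptor-modifying protein, was likewise higher in 1-week cTEC (45.2 and 47.2, then 3.24 and 5.30) than in fibroblast-rich cells (20.2 and 28.1). Mdk, the growth factor midkine, stood at 409 and 409.5 and then 107 and 65.2 (-2.13), and the neutrophil chemokine Cxcl1 at 71.4 and 75.5 and then 6.48 and 11.6 (-2.13). Rgs5, a pericyte gene, and Eln, elastin, were lower as well, with 25.1 and 18.2 and 8.91 and 6.29 CPM at 16 weeks and more in fibroblast-rich cells at both ages. Of 12 matrix genes, Col4a1, Col4a2 and Fn1 were called lower and Prelp higher. Ddx3y was called lower too, at 27.3 and 27.1 and then 0.810 and 0, which follows the sex-linked difference between the pools given above.

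**Figure D3:**
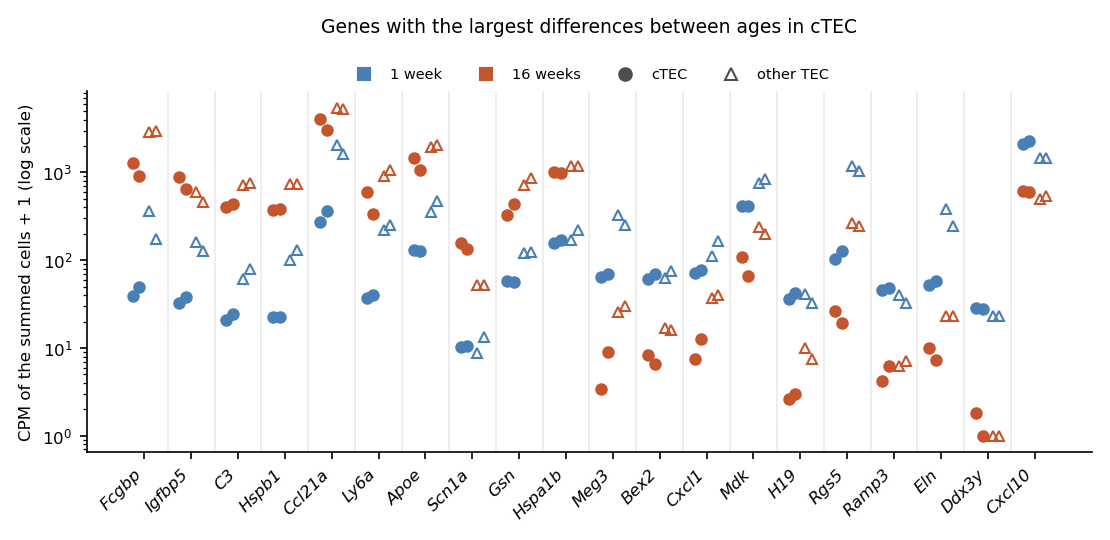
CPM + 1 of summed cells (log scale) for the 10 genes with the largest increase (left) and decrease (right) from 1 to 16 weeks in cTEC, 1 point per well, filled circles for cTEC and open triangles for other TEC, blue at 1 week and orange-red at 16 weeks. In cTEC the wells of the ages do not overlap for any of these genes, and Igfbp5 and Scn1a are the ones among the increases with both 16-week cTEC wells above other TEC.

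Of 19 immediate early and heat shock genes, Hspa1a, Hspa1b and Hspb1 were called higher, and Egr2, Ier3 and Zfp36 lower. Hspb1, a small heat shock protein, stood at 21.7 and 21.8 and then 368 and 386 CPM (3.61 ± 0.05), and Hspa1b, inducible HSP70, at 156 and 169 and then 996 and 978 (2.53). Fibroblast-rich cells had the same 3 calls, with Hspa1b at 114 and 191 and then 2486 and 2346. Fos stood at 1575 and 1430.1 and then 1154 and 635 and was not called. These genes are known to respond to tissue digestion, and the part of handling, which was separate for each age, was not tested.

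Of the 8 neonatal cTEC genes, Fcgbp and Enpep were called higher, while Tbata, Syngr1, Slc46a2, Cd83, Cd40 and Fam213b had no call between ages, with Tbata at 7136 and 6536 and then 5255 and 7019 CPM. Cd83 stood at 427 and 416 and then 186 and 323, with no overlap of the wells, and its log2 difference of -0.71 was below the limit. It was -1.14 with well 1 of the 16-week pool alone, past the limit, and -0.37 with well 2 alone. Cd40, the TNF receptor family member of TEC activation, stood at 47.1 and 46.8 and then 22.7 and 35.7 (-0.54).

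Surface tags gave a readout that the rule did not use. Each tag is a DNA barcode on an antibody or lectin, and the 15-base barcodes of the tags on which the next results turn were deposited as follows, with CD49a (integrin α1), Sca1, CD83, CD40 and the UEA1 lectin, read by tagged streptavidin, shown because they separate the ages or the classes.
CD49a: ccattcatttgtggc
Sca1: ttcctttcctacgca
CD83: tctcaggcttcctag
CD40: atttgtatgctggag
UEA1: aacctttgccactgc
A tag level is the mean over cells of log2 of 1 plus the count divided by the cell's tag total and multiplied by the mean total, and a difference of 0.5 was the limit of a call. MHCII took 71.6% of the tag counts of 16-week cTEC, so other tags depend on the scaling, and the difference by centred log ratio (CLR) is given beside those called between ages. The median cell held 2814 and 2769 tag counts in 16-week cTEC and 4409 and 4991.5 in 1-week cTEC.

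Between ages, 4 of the 27 tags were higher (14.8%) and 4 lower (14.8%) in 16-week cTEC, 29.6% in all. Sca1 moved the most, from 4.45 and 4.43 to 7.11 and 6.65, a difference of 2.44 (CLR 2.16), in the same direction as its transcript Ly6a. CD49a moved from 2.99 and 2.94 to 5.08 and 4.54 (1.85, CLR 1.73), and its transcript Itga1 from 23.4 and 25.7 to 65.6 and 54.9 CPM, a call kept in 7 of 16 alternative settings. In other TEC CD49a moved the opposite way, from 4.39 and 4.15 to 3.26 and 3.11. In that class the summed level of 3 mural markers moved from 2021 and 1989 to 842 and 879.8 CPM, that of 4 endothelial markers from 379 and 393 to 137 and 145, that of 6 fibroblast markers from 367 and 345 to 499 and 567, and the endothelial tag CD31 from 2.59 and 2.497 to 1.45 and 1.23. Fibroblast-rich cells carried 7.196 and 7.26 of CD49a at 1 week, and the part of such cells in the difference was not tested. CD49a was thus lower in cTEC than in other TEC at 1 week (difference -1.31) and higher at 16 weeks (1.63), in both wells of each age. CD270, the TNF receptor HVEM, moved from 6.70 and 6.67 to 7.24 and 7.31 (0.59), and the CLR of 0.44 missed the limit. CD86, a co-stimulatory ligand, moved from 1.12 and 1.22 to 2.18 and 1.45 (0.64), but the CLR of 0.46 missed the limit and the 16-week wells also differed by over 0.7 in other TEC (2.80 and 1.98), so 1 well decides its value.

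CD40, CD63, UEA1 and EpCAM1 were lower at 16 weeks. CD40 moved from 4.84 and 4.83 to 3.84 and 3.70 (-1.06, CLR -1.11), and other TEC moved alike, from 4.40 and 4.42 to 3.58 and 3.45. CD63, a tetraspanin, moved from 5.58 and 5.54 to 4.50 and 4.36 (-1.13, CLR -1.29), while Cd63 RNA stood at 232 and 216 and then 297 and 259 CPM. UEA1 moved from 7.72 and 7.69 to 6.91 and 6.87 in cTEC (-0.81, CLR -1.11) and from 8.83 and 9.04 to 9.58 and 9.69 in other TEC, in the opposite direction. EpCAM1, on which the cells were sorted, moved from 7.13 and 6.96 to 6.37 and 6.24 (-0.74, CLR -1.004). CD83 was not called (1.24 and 1.20, then 0.92 and 1.12), with few counts: the median 16-week member held 1 in both wells. MHCII stood at 11.24 and 11.23 and then 11.23 and 11.30, and CD73, an ectonucleotidase, at 3.39 and 3.38 and then 3.58 and 3.42.

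Against other TEC of the same wells, 10 tags were higher (37.0%) and 4 lower (14.8%) in 16-week cTEC, 51.9% in all. UEA1 showed the largest difference, 6.91 and 6.87 in cTEC and 9.58 and 9.69 in other TEC (-2.75, CLR -3.22). CD80 was lower too (-1.48), as were CD86 (-0.57) and Sca1 (-0.57). The Sca1 difference was -0.34 in well 1 and -0.81 in well 2, so its call was lost without well 2. The higher tags were CD200 (1.85), CD270 (1.81), Podoplanin (1.75), CD49a (1.63), CD73 (1.30), CD63 (0.94), CD83 (0.79), MHCII (0.79), CD274 (0.70) and CD54 (0.56). The CD54 difference was 0.71 in well 1 and 0.41 in well 2, so its call was lost without well 1. By CLR, CD54, CD274 and MHCII lost the call, at 0.07, 0.23 and 0.31. CD40 differed by 0.26 and EpCAM1 by 0.09, neither called. Of 19 genes of the tagged proteins compared, 2 were called higher (Cd83 and Cd274) and 8 lower, among them Cd80, Ly6a (which encodes Sca1) and Cd40, and their median was -0.86. The Ly6a call was lost without well 2, without deep cells and cells with thymocyte UMIs, and with cells weighted equally. For the higher tags CD200, Podoplanin, CD49a, CD63 and CD54 the transcripts were not called, with log2 differences of 0.57 for Cd200, -0.16 for Pdpn, -0.48 for Itga1, -0.18 for Cd63 and -0.04 for Icam1, nor was that of the class II gene H2-Ab1 (0.04).

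**Figure D4:**
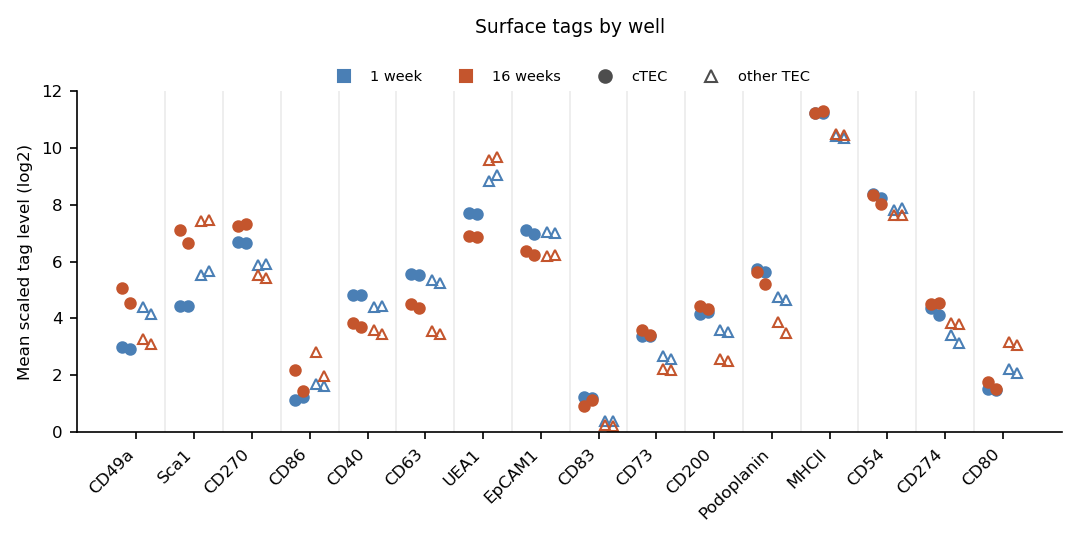
Mean scaled tag level per well (log2) in cTEC (filled circles) and other TEC (open triangles) at 1 week (blue) and 16 weeks (orange-red). For CD49a the order of the classes is opposite at the ages, and for UEA1 the classes lie farther apart at 16 weeks.

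The following values describe the 254 members along the share that chose them, and nothing is read from their order. In bands of that share, 106 held 0.1 to 0.25%, 67 held 0.25 to 0.5% and 81 held 0.5% or more of their UMIs as Psmb11 and Prss16. From the lowest to the highest band, Tbata stood at 2211 and 1870.1, 3841 and 4845 and 10165 and 11147 CPM, and Ccl25 at 1775 and 1814, 2115 and 3316 and 6797 and 7427. Ccl21a stood at 7271 and 4479, 3026 and 4954 and 1018 and 1168 CPM. Ackr4, the scavenger receptor that takes up Ccl21a, Ccl19 and Ccl25, stood at 359 and 276, 119 and 168 and 107 and 73.9. The scaled Sca1 tag was 7.90 and 7.59, 6.86 and 6.63 and 5.92 and 5.58. Other TEC stood at 7.45 and 7.46, so the lower Sca1 of the members as a whole did not hold for the lowest band. In that band Ccl21a was above the level of other TEC given earlier in well 1 and below it in well 2. Its UEA1 tag, at 7.18 and 7.79, was below the 9.58 and 9.69 of other TEC. The median depth of the bands was 7167, 11761 and 20283 UMIs, so depth moved with the share.

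Split at each well's median of the Sca1 tag, a split made after the tags were seen, the members gave 34 and 92 Sca1-high and 35 and 93 Sca1-low cells. Of 9246 genes compared, 35 (0.379%) were higher and 81 (0.876%) lower in the Sca1-high cells, 1.25% in all. Without well 2 the counts were 120 and 157, and with a pseudocount of 1 CPM 164 and 184. Which genes were called depended on how the tag was scaled: a split by the raw tag count kept 8 of the 35 and 29 of the 81, and one by the CLR kept 18 and 49. Ly6a stood at 971 and 695 CPM in Sca1-high and 232 and 123 in Sca1-low cells (2.21). Cd83 stood at 73.2 and 107 against 294 and 449 (-1.92), Tbata at 3199 and 4426 against 7206 and 8543 (-1.06) and Ccl25 at 2271 and 2719 against 4675 and 6102 (-1.10). Of the 9-gene cTEC list only Ccl25 was called, and the list's median was -0.78. Cxcl12 stood at 1401 and 1336 against 1549 and 1593 and Foxn1 at 116 and 145 against 156 and 200.2, neither called. The genes higher in Sca1-high cells also included Cdh11, a mesenchymal cadherin (61.5 and 37.6 against 6.32 and 7.88), Gas1, Fmod, Isg15 and Ifi27l2a, the last at 2746 and 2771 against 1109 and 891. Of the 18 interferon response genes, 2 were called higher (Isg15 and Ly6a) and none lower, with a median of 0.31, and the interferon-inducible Isg20, outside that list, was lower at 245 and 315 against 527 and 894 (-1.28).

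The share that chose the cells moved with the split too, at 0.282 and 0.351% of UMIs in Sca1-high and 0.548 and 0.664% in Sca1-low cells, as did the MHCII tag, at 10.91 and 11.05 against 11.54 and 11.54 when scaled and 6.41 and 6.52 against 8.02 and 8.34 by CLR. The part of that share in these differences was not tested. Transcripts of other cells and of the cell cycle moved as well. Of 14 cell cycle genes, 6 were lower in Sca1-high cells (Mki67, Ccnb2, Ube2c, Tpx2, Hmgb2 and Stmn1), with a list median of -0.99. The smooth muscle actin gene Acta2, of the mural marker list, was higher, at 166 and 156 against 28.4 and 83.5 CPM, as were the contractile genes Cald1 and Myl9, but the mural list's other genes, Rgs5 (0.15) and Myh11 (-0.20), were not called. Of 11 thymocyte genes compared, 10 were lower in Sca1-high cells, led by Trbc1 at 14.97 and 19.7 against 155 and 133 CPM, and at least 3 thymocyte UMIs were held by 6 and 8 Sca1-high but 13 and 34 Sca1-low cells. Without those cells, Tbata stood at 2462 and 4219 against 4651 and 7369, Cd83 at 55.0 and 109 against 141 and 395 and Ly6a at 1058 and 729 against 364 and 157, in the same order in both wells. The log2 differences of Tbata and Ccl25 were then -0.86 and -0.91, under the limit, and 16 of the 35 higher and 25 of the 81 lower calls were kept. The part of these cells in the split was not tested. Depth was uneven and not in 1 direction, with medians of 15190.0 and 7081 UMIs in Sca1-high and 10993 and 16821 in Sca1-low cells. Tag depth was lower in Sca1-high cells, with medians of 1889 and 1308 tag counts against 4954 and 5093. The CD49a tag was 5.75 and 5.13 in Sca1-high and 4.44 and 3.96 in Sca1-low cells when scaled, and 1.51 and 1.03 against 1.14 and 0.80 by CLR, where the difference was under the limit of 0.5 in both wells. UEA1 stood at 7.32 and 7.53 against 6.52 and 6.23 when scaled, but at 2.85 and 3.04 against 3.00 and 3.02 by CLR, so its difference depended on the scaling.

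**Figure D5:**
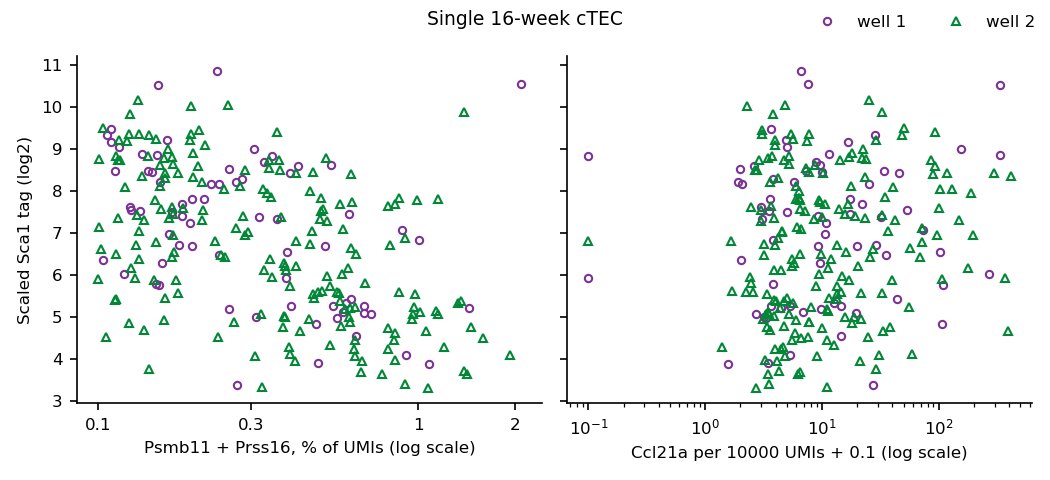
Each point is 1 of the 254 cTEC of the 16-week pool, with the scaled Sca1 tag (log2) against the share of Psmb11 and Prss16 UMIs (left) and against Ccl21a per 10000 UMIs plus 0.1 (right), both on log scales, by well. The share on the left is the value that chose the cells, and no relation is read from it. On the right, cells with over 100 Ccl21a counts per 10000 UMIs occur at many Sca1 levels.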

How the data were processed

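Libraries of 4 wells, each with RNA and ADT, were analysed, 2 wells per age. According to the study's methods and the submitters' processing notes, the authors aligned reads to mm10 with STARsolo (2.7.9a) and Ensembl gene models and kept cells with at least 2000 UMIs. The authors deposited whole-number counts per gene and cell, whole-number counts per tag and cell, and the tag barcodes, with no normalisation and no cell annotation used here. The labels and the methods name different versions of the reagent kit, and which was used is not known here. Each cell's library was read from the ending of its name.

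Counts were summed per class and well (Python 3.11.15, numpy 2.4.6, scipy 1.17.1, edgeR 4.0.16 for TMM). Of 55487 gene identifiers, 55141 matched a GENCODE M21 symbol. Since wells of 1 pool are no biological replicates, no p-value was computed. Genes named are the list genes that were called, some others of each list, and the 10 largest calls in each direction outside the rule, without ribosomal, mitochondrial and predicted genes. Up to 4 others a list were planned, and some lists have more. Other genes (Ackr4, Isg15 in the Sca1 split, Ddx3y as a pool check) were named after their values were seen. No doublet caller was run, and deep cells and cells with thymocyte UMIs were left out as an alternative. The calls were tried on simulated counts that held counting error only, with no variation between pools or cells. Such counts cannot show how many calls between 1 pool per age are false. The members and gene lists were chosen with earlier results of these data known.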

Additional observations from a re-analysis of the deposited data

Results flagged for a closer look

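These 4 effects were picked because they had opposite directions in cTEC and other TEC, or at the 2 ages. They had them in every well, and with wells of 1 pool per age none of these differences was tested. The CD49a tag differed by 1.85 between 16 weeks and 1 week in cTEC and by -1.09 in other TEC. Its difference between cTEC and other TEC was 1.63 at 16 weeks and -1.31 at 1 week. Both CD49a effects come from the same means and are not independent. The UEA1 tag differed by -0.81 with age in cTEC and by 0.70 in other TEC. By centred log ratio, the age differences in cTEC and other TEC were 1.73 and -0.69 for CD49a and -1.11 and 1.07 for UEA1. Igfbp7 transcripts differed by 1.47 (log2) with age in cTEC and by -1.33 in other TEC, and without cells over 30000 UMIs the cTEC difference was 0.91, below the limit of 1. At 1 week, fibroblast-rich cells held 1878 and 1915 CPM of Igfbp7. Markers of stromal cells moved with age in other TEC too, from 2021 and 1989 to 842 and 879.8 CPM for 3 mural and from 379 and 393 to 137 and 145 for 4 endothelial genes summed, and their part in these differences was not tested.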

How the results depend on the processing

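No paired analysis was possible because no model was fitted that a replicate block could enter. Differences between classes and between Sca1-high and Sca1-low cells already compare within each well, and nothing matches wells between ages. The share of cTEC at 16 weeks was 3.75% under the stricter rule, 4.46% without deep cells and cells with thymocyte UMIs, 3.73% of all cells and 9.43% when every cell was thinned to 2000 UMIs, where 2 UMIs of the pair sufficed in place of 3. At 1 week it was 66.6% under the stricter rule, 60.9% of all cells and 81% when thinned. Leaving out 1 well gave 5.67 to 6.19% at 16 weeks and 72.3 to 77.2% at 1 week.

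Between ages, the genes called in 16-week cTEC were 101 higher and 43 lower with a filter at 50 CPM, 418 higher and 229 lower with a pseudocount of 1 CPM, and the lower calls were 248 without deep cells and cells with thymocyte UMIs and 218 without cells over 30000 UMIs, an alternative chosen after seeing the data. Leaving out 1 well gave 204 to 257 higher and 109 to 161 lower. The share of calls that were higher was 65.7%, and 54.0% with TMM, 56.5% with median-of-ratios scaling and 51.9% with cells weighted equally. TMM shifted the median of all genes from 0.04 to -0.06. Against other TEC the calls were 217 higher and 156 lower at 50 CPM (58.2% higher, against 31.5%), and 547 higher with a pseudocount of 1 CPM. Leaving out 1 well gave 341 to 374 higher and 723 to 751 lower. A filter at 50 CPM compares fewer genes by construction, and the cause of the other shifts was not tested.

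The Sca1 split, with all its alternatives chosen after seeing the data, gave 23 higher and 41 lower by the raw tag count, 164 higher and 184 lower with a pseudocount of 1 CPM, 16 higher and 25 lower at 50 CPM and 65 higher in cells over 12000 UMIs. Leaving out a 16-week well gave 51 to 120 higher and 116 to 157 lower, the larger counts without well 2, which kept 25 of the 35 higher and 68 of the 81 lower calls. Tags higher with age numbered 2 under the stricter rule, 2 by centred log ratio and 2 by raw counts, with 7 lower by raw counts. Leaving out 1 well gave 3 to 4 higher and 4 lower with age, and 9 to 10 higher and 3 to 4 lower against other TEC. Sca1 and CD49a were the 2 tags called higher with age by centred log ratio. Without deep cells and cells with thymocyte UMIs, the differences against other TEC were -0.09976 for Cd3d, -0.004798 for Cd3e, -0.06139 for Cd3g, -0.08227 for Dntt, -0.2468 for Trbc1. These genes are among those by which the cells were left out, so nothing is read from these values. Calls lost without 1 well between ages were those of Birc5, Cd274, Cdkn1c, Ddx3y, Enpep, Fn1, Hba-a1, Hba-a2, Igfbp2, Isg20, Itga1, Ube2c and Zfp36, the 2 globin genes without well 1 of the 1-week pool. Against other TEC, the calls lost without 1 well were those of Cd3d, Cd40, Gsn, Hba-a2, Pdgfrb and Top2a (well 1) and of Cd8a, Foxn1, H2-DMa, Ly6a and Plet1 (well 2), and 54 of 97 genes kept the call in every setting. Of 61 genes named between ages, 25 kept the call in every setting.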

Other observations

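Globin transcripts stood apart in 1 well. Summed over 4 erythroid genes, cTEC of well 1 of the 1-week pool held 261.9 CPM and those of well 2 33.3, against 19.4 and 29.8 in the 16-week wells, and the age calls of Hba-a1 and Hba-a2 were lost without well 1 of the 1-week pool. Of 82 ribosomal protein genes compared none was called between ages. Their median log2 difference was -0.29, with a range from -0.74 to 0.05, while the share of UMIs on them was 15.2% and 14.9% in 1-week and 12.5% and 11.9% in 16-week cTEC. Xist stood at 648 and 674 CPM in 1-week and 1099 and 1303 in 16-week cTEC. Within the 16-week members, Prss16 had a median of 20.3 and 26.95 counts per 10000 UMIs in wells 1 and 2, and Psmb11 4.19 and 6.25, and 17.4% and 10.3% of members held no Psmb11 UMI.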
